A study of Arabidopsis thaliana with 6 samples.

Results

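The stomatal lineage genes examined here are 8 genes of *Arabidopsis thaliana* that act from the start of the stomatal lineage to the guard cell: the secreted peptide genes *EPF1*, *EPF2* and *STOMAGEN* (also called *EPFL9*), the receptor gene *TMM*, the protease gene *SDD1*, and the transcription factor genes *SPCH*, *MUTE* and *FAMA*. They were chosen by locus identifier, with their means in both genotypes already known, and they are 8 of the 32678 genes in the table. RNA was sequenced from *agl62* seeds and from WT seeds, in 3 biological replicates per genotype. Flowers of both genotypes were emasculated before anthesis and pollinated by hand, and the seeds were collected at 30 hr after pollination. The labels give the mutant genotype as *agl62*/-, and the seeds came from the rare plants that are homozygous for the mutation and set little viable seed, so the maternal tissues carried the mutation as well as the seeds. The mutant allele listed in the study's methods is *agl62-2*. A legend of the study names *agl62*/+ seeds instead. The WT strain of these libraries and the source of the pollen were not given in the sources used here.

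Stomata are pores in the plant epidermis, each formed by a pair of guard cells. The bHLH transcription factor SPCH starts the lineage through asymmetric divisions, MUTE ends those divisions, and FAMA drives the last division and guard cell identity, each together with the related factors SCRM and SCRM2. Secreted peptides set the spacing. EPF2 and EPF1 restrict the lineage at an early and a later step through the ERECTA family of receptor kinases and the receptor-like protein TMM, whereas STOMAGEN, which is made by photosynthetic mesophyll cells in leaves, promotes stomata by competing for the same receptors. Stomata are known from leaves, stems and the fruit wall.

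The table holds the authors' mean normalized count of each gene in each genotype, that is, the counts of a library divided by its size factor and averaged over the 3 libraries. It has no value of a single library. No SD and no test between the genotypes is therefore given, and whether the libraries of a genotype overlap those of the other is not known. The precision stated below is a 95% interval for counting error only, which leaves out the spread between replicates. It was computed from the relative depths of the libraries, which could be read from the lowest means: they were between 1.059 and 1.304 in *agl62* and between 0.4558 and 1.376 in WT, and all 1737 means under 1 in *agl62* (19 distinct values) and all 1522 in WT (12 distinct values) were whole-number sums of what single counts add at these depths, within 0.0005 plus 0.25% of the value. The depths were fitted to these same means. At that tolerance 8.01% (*agl62*) and 4.805% (WT) of all values under 1 with 3 decimals would match. A floor of 3 normalized counts, or 3 counts in a library of relative depth 1, was used for all folds against a lower value. *AGL62* itself had a mean of 1.81 in *agl62* seeds, which only 6 counts over the 3 libraries can make, and of 410 in WT seeds, so it was at least 137-fold lower in *agl62*.

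The 3 peptide genes are shown first by the last 50 codons before the stop, where most of their cysteine codons lie, because reads of *EPF2* and of its relatives must be told apart for what follows. The sequences are coding strand from the RefSeq annotation of TAIR10.1, and capitals mark in-frame cysteine codons (TGT or TGC).
*EPF1*: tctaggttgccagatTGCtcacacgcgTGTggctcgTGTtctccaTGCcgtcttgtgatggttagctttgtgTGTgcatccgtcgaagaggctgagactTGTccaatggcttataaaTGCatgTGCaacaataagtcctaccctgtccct
*EPF2*: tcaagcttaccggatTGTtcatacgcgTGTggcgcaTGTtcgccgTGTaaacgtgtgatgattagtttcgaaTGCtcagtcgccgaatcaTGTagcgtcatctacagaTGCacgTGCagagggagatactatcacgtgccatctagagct
*STOMAGEN*: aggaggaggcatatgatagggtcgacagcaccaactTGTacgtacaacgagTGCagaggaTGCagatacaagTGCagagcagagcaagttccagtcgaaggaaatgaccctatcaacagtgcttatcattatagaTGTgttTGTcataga
These tails hold 8 cysteine codons in *EPF1*, 8 in *EPF2* and 6 in *STOMAGEN*, of 8, 10 and 7 in the whole coding sequences of 104, 120 and 102 codons. Between *EPF1* and *EPF2*, 62.7% of the 308 aligned coding bases were identical, and between *EPF2* and *STOMAGEN* 64.5% of 296. In a search of the TAIR10.1 genome, none of the 8 genes had a match elsewhere of at least 100 bases at 95% identity or more. Overlap with neighbouring annotated genes was not examined. Reads of 1 member could therefore not be mistaken for those of another by a near-identical stretch.

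Of the 8 genes, *EPF2* (at least 4.67-fold) and *TMM* (3.07-fold) had higher means in *agl62* seeds. *STOMAGEN* and *SDD1* differed by at most 1.23-fold. *SPCH*, which starts the lineage, had a lower mean in *agl62* seeds within its counting error, *EPF1* was under the floor in both, and no read was counted for *MUTE* or *FAMA* in any of the 6 libraries. Of the 8 genes, 6 had reads and 3 (*STOMAGEN*, *TMM* and *SDD1*) averaged at least 10 normalized counts over the 2 genotypes, the level asked for a call. Of these 3, 1 was at least 2-fold higher in *agl62* and 0 were at least 2-fold lower, in a table where 2.64% of the 19898 genes averaging at least 10 were at least 2-fold higher and 3.06% at least 2-fold lower, 5.7% in all. With no filter, which adds *EPF2*, 2 members were at least 2-fold higher and 0 lower, where 3.39% of the 24985 genes with reads were higher and 3.41% lower, 6.79% in all. Since these means were known when the genes were chosen, nothing is read from these counts. The seeds were measured in bulk, so fewer cells of a type and less RNA per cell cannot be told apart.

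**Figure D1:**
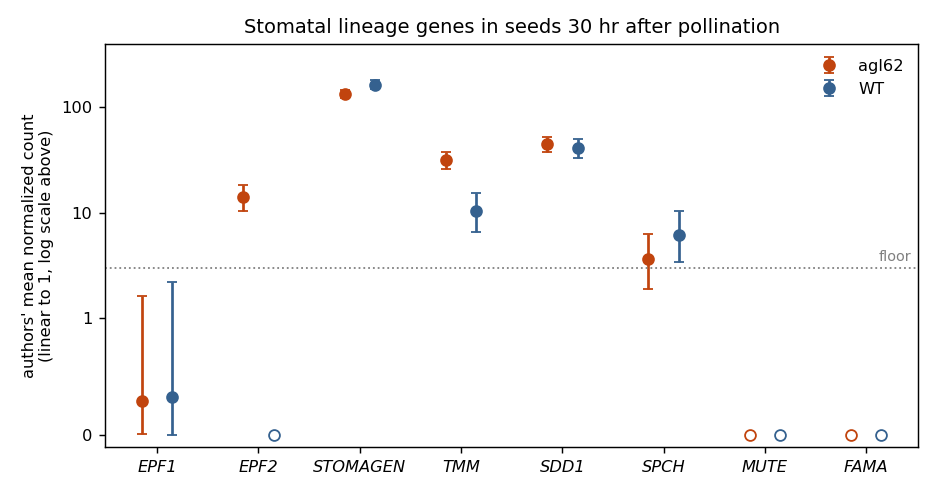
Authors' mean normalized count (y axis, linear to 1 and logarithmic above) of the 8 stomatal lineage genes in *agl62* (orange, left) and WT (blue, right) seeds. Bars are 95% intervals for counting error only, open circles are means of 0, and the dotted line is the floor of 3. *EPF2* was at 14.0 in *agl62* and 0 in WT, and *MUTE* and *FAMA* were at 0 in both.

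*EPF2* (AT1G34245) is annotated on the plus strand of chromosome 1, positions 12472868 to 12473974, with 3 exons. The authors' mean was 14.0 (95% counting interval 10.3 to 18.5) in *agl62* seeds and 0 in WT seeds. The *agl62* mean can be made by 45 to 55 counts over the 3 libraries, in 576 ways, so it does not show whether 1 library or all of them carried the reads. In WT no read was counted in any of the 3 libraries. Against the floor, *EPF2* was at least 4.67-fold higher in *agl62* (3.45 to 6.17 with the counting interval of the *agl62* mean). Its average of 7.0 was under the filter of 10. A WT mean of 0 with reads in *agl62* was found for 1141 genes, of which 18, *EPF2* included, had an *agl62* mean of at least 14.0. The reverse, 0 in *agl62* and a mean of at least 14.0 in WT, was found for 42 genes.

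*TMM* (AT1G80080), a leucine-rich repeat protein without a kinase domain that acts with the ERECTA family, is annotated on the minus strand of chromosome 1, positions 30127819 to 30129649, with 1 exon. The authors' mean was 31.6 (counting interval 26.0 to 38.1) in *agl62* seeds and 10.3 (6.58 to 15.4) in WT seeds. The counts behind these means number 101 to 123 in *agl62* and 16 to 42 in WT. *TMM* was 3.07-fold higher in *agl62*, a log2 ratio of 1.62 with a counting interval of 0.97 to 2.32. Differences of 2-fold were common at such low levels. Of the 2235 genes averaging at least 10 and under 50, 14.5% were at least 2-fold higher in *agl62* and 12.7% at least 2-fold lower, 27.1% in all, and 150 of them, or 6.71%, had a log2 ratio at least that of *TMM*. The 5th and 95th percentiles of their log2 ratios were -2.81 and 1.94, and *TMM* lay between them. Among the 1283 genes averaging 20 to 50, the 95th percentile was 1.67, just above *TMM*.

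**Figure D2:**
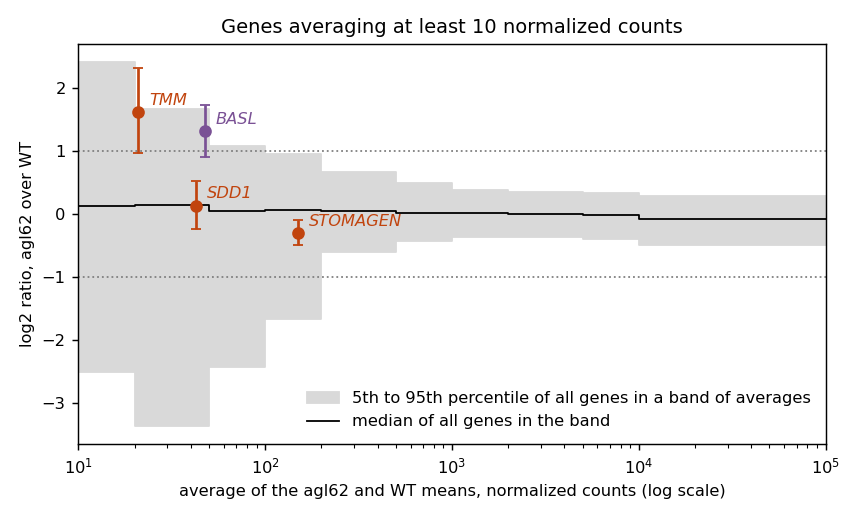
Log2 ratio of the authors' means, *agl62* over WT (y axis), against the average of the 2 means in normalized counts (x axis, log scale). Points are the 3 stomatal lineage genes averaging at least 10 (orange) and *BASL* (purple), with 95% counting intervals, and the grey steps span the 5th to 95th percentile of all genes in a band of averages. *TMM* (1.62) and *BASL* (1.31) were above the dotted line of 2-fold and within the span of their band, averages of 20 to 50. With an average of 47.7, *BASL* was near the upper edge of that band. It was above the 95th percentile of the band of 50 to 100 (1.075).

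*STOMAGEN* (AT4G12970) is annotated on the minus strand of chromosome 4, positions 7585869 to 7587099, with 3 exons, and it had the highest level of the 8 genes. The authors' mean was 134 (counting interval 122 to 147) in *agl62* seeds and 165 (149 to 182) in WT seeds. The ratio was 0.812, a log2 ratio of -0.30 with a counting interval of -0.50 to -0.10. The difference is thus beyond the counting error but short of 2-fold, and the replicate spread it would have to exceed is not known. *SDD1* (AT1G04110), a subtilisin-like protease that limits stomatal number, is annotated on the minus strand of chromosome 1, positions 1061297 to 1063809, with 1 exon. Its mean was 44.8 (38.0 to 52.4) in *agl62* seeds and 40.9 (33.1 to 50.03) in WT seeds. These intervals overlap, and the log2 ratio was 0.13 (-0.25 to 0.52).

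*SPCH* (AT5G53210) is annotated on the minus strand of chromosome 5, positions 21586219 to 21589255, with 3 exons. Its mean was 3.62 (1.91 to 6.24) in *agl62* seeds and 6.18 (3.40 to 10.3) in WT seeds, made of 12 to 14 counts in *agl62* and 9 to 21 in WT. The log2 ratio was -0.77, and its counting interval, from -1.99 to 0.43, spans both directions. *EPF1* (AT2G20875), on the minus strand of chromosome 2 (positions 8982863 to 8983814, 2 exons), had a mean of 0.291 in *agl62* seeds and 0.326 in WT seeds. Each of these means is 1 count in 1 library, so no fold is given. *MUTE* (AT3G06120), on the plus strand of chromosome 3 (positions 1846442 to 1848259, 3 exons), was listed at 0 in both genotypes. *FAMA* (AT3G24140, named *FMA* in RefSeq), on the minus strand of chromosome 3 (positions 8715118 to 8718211, 5 exons), was listed at 0 in both genotypes as well. At this depth the levels of *EPF1*, *MUTE* and *FAMA* were under the floor of 3 normalized counts, which does not show that the genes were silent.

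Levels of different genes were compared as normalized counts per kb of exon, over 24932 genes with reads and an annotated exon length. In *agl62* seeds the order was led by *STOMAGEN* with 136 per kb, the 39.5th percentile of all genes with reads. *SDD1* (17.8 per kb), *TMM* (17.3 per kb) and *EPF2* (16.9 per kb) followed, with counting intervals of 15.1 to 20.9, 14.2 to 20.8 and 12.5 to 22.4 per kb that overlap, near the 25th percentile. *SPCH* had 1.66 per kb and *EPF1* 0.336 per kb, with overlapping intervals. In WT seeds *STOMAGEN* had 168 per kb and *SDD1* 16.3 per kb, and the interval of *SDD1* (13.2 to 19.9 per kb) lay above that of *TMM* (5.63 per kb, 3.60 to 8.39). *TMM* and *SPCH* (2.84 per kb, 1.56 to 4.74) were not separated by their intervals in WT. *TMM* therefore stood beside *SDD1* in *agl62* and under it in WT.

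**Figure D3:**
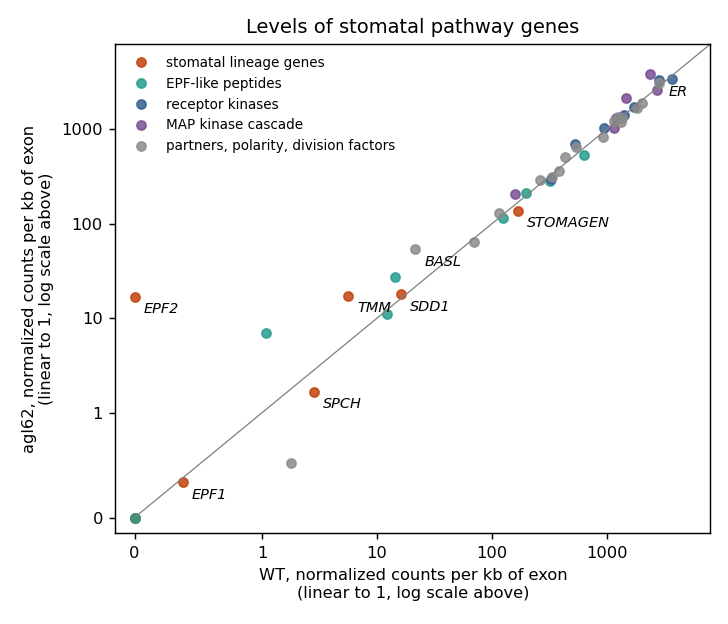
Normalized counts per kb of exon in *agl62* seeds (y axis) against WT seeds (x axis), both linear to 1 and logarithmic above, for the 8 stomatal lineage genes (orange) and 39 further genes of the pathway. The grey line marks equal levels. *EPF2*, *TMM*, *BASL*, AT3G13898 and AT4G37810 were among the genes above the line. The receptor and MAP kinase genes lay nearer to it, at levels up to 3805 per kb, that of *MPK3* in *agl62* (2368 in WT).

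The 250 bases upstream of the annotated starts of *EPF2* and *TMM* are given because these were the members with the larger differences. They are from TAIR10.1, chr1:12472618-12472867 on the plus strand for *EPF2* and chr1:30129650-30129899 on the minus strand for *TMM*, written 5′ to 3′ toward the gene. Capitals mark E-boxes, CANNTG, the core that bHLH factors such as SPCH can bind, which reads the same on both strands.
*EPF2*: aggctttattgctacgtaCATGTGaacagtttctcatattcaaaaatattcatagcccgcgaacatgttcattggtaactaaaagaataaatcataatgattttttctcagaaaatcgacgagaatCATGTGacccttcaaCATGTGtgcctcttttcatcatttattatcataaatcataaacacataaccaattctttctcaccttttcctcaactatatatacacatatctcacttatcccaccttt
*TMM*: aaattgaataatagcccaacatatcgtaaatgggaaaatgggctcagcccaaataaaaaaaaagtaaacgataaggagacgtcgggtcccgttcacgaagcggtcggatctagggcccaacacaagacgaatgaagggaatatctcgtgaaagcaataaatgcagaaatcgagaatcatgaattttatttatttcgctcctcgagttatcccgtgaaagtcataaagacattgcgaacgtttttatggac
The *EPF2* stretch held 3 E-boxes and that of *TMM* none. An E-box was present upstream of 5 of the 8 members, and of 55.7% of the 31911 genes with such a stretch. The G-box CACGTG, which is itself an E-box, was found upstream of 0 members and of 5.91% of all genes. The CArG box, bound by many MADS-domain factors, was found on neither strand upstream of any member and upstream of 2.38% of all genes. A match is only a run of letters, and its absence from these 250 bases says nothing of a factor.

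Of 39 further genes of the pathway, 38 had reads and 36 averaged at least 10. Among the 36, 1 was at least 2-fold higher in *agl62*, 0 were at least 2-fold lower and 35 were neither, beside 2.64% higher and 3.06% lower of all genes averaging at least 10. Their median log2 ratio was 0.01, as was that of all genes averaging at least 10. The 1 gene was *BASL* (AT5G60880), whose protein marks 1 side of the dividing lineage cell. The authors' mean for *BASL* was 68.0 (counting interval 59.6 to 77.2) in *agl62* seeds and 27.4 (21.1 to 35.0) in WT seeds, a 2.48-fold difference (1.87 to 3.33). *BASL* averaged 47.7, near the upper edge of the genes averaging 10 to 50, of which 14.5% were at least 2-fold higher. The 95th percentile of the log2 ratio was 1.67 for genes averaging 20 to 50 and 1.075 for those averaging 50 to 100. The log2 ratio of *BASL*, 1.31, lay between these values, so its place among genes of its level depends on the band. *POLAR*, a partner of *BASL* in cell polarity, had a mean of 0.802 in *agl62* seeds and 2.75 in WT seeds, both under the floor.

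The receptor kinase genes were read far more deeply than *TMM*. *ER* had a mean of 13300 in *agl62* seeds and 11400 in WT seeds, and *ERL1* one of 11900 in *agl62* seeds and 13100 in WT seeds. *ERL2* had 1080 in *agl62* seeds and 1180 in WT seeds. Per kb, *ER* stood at 3338 and *TMM* at 17.3 in *agl62* seeds, against 2861 for *ER* and 5.63 for *TMM* in WT seeds. The 7 receptor kinase genes had log2 ratios between -0.14 and 0.39. The MAP kinase cascade that relays the signal from YDA to MPK3 and MPK6 was likewise present, with 7 genes between -0.17 and 0.68. The highest of these was *MPK3*, a kinase also used in defence, at 7070 in *agl62* seeds and 4400 in WT seeds (1.61-fold). The bHLH partners *SCRM* (7820 in *agl62* seeds, 7240 in WT seeds) and *SCRM2* (1480 in *agl62* seeds, 1220 in WT seeds) were abundant although *MUTE* and *FAMA* had no reads. Both partners are also known outside the stomatal lineage, in cold tolerance.

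Of the 8 other genes of the EPF-like peptide family, 7 had reads and 6 averaged at least 10, with a median log2 ratio of -0.13 and a range of -0.24 to 0.92. *EPFL4*, which acts on the ERECTA family in stems, had 228 in *agl62* seeds and 257 in WT seeds. *EPFL6* had 182 in *agl62* seeds and 196 in WT seeds. The highest ratio among the 6 was that of AT3G13898, annotated as an EPF-like protein, with 21.2 in *agl62* seeds and 11.2 in WT seeds (1.89-fold). AT4G37810, likewise an EPF-like protein, averaged under 10, with 6.25 in *agl62* seeds and 0.969 in WT seeds, at least 2.08-fold higher against the floor.

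The log2 ratio of *TMM* was matched within 0.1 by 43 genes averaging at least 10, *TMM* included, so likeness over 2 means says little. Among the pathway and marker genes averaging at least 10, the closest ratios were those of the Rubisco small subunit genes *RBCS1B* (1.55) and *RBCS3B* (1.54), which have near-identical copies, followed by *BASL* (1.31).

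Markers of tissues that bear stomata, or that could be in the samples, were read beside these values. Over all genes averaging at least 10, 2.64% were at least 2-fold higher in *agl62* and 3.06% at least 2-fold lower. Of 12 guard cell markers, 8 averaged at least 10, with 1 at least 2-fold higher in *agl62*, 0 at least 2-fold lower, a median log2 ratio of 0.05 and a range of -0.90 to 1.11. The 1 gene was the potassium channel gene *GORK*, with 32.5 in *agl62* seeds and 15.1 in WT seeds. With an average of 23.8, *GORK* is among the genes averaging 10 to 50, of which 14.5% were at least 2-fold higher. Nothing is read from this count. At 1.5-fold, 1 was higher and 2 were lower, the potassium channel gene *KAT2* (29.8 in *agl62* seeds, 55.6 in WT seeds) and the myrosinase gene *TGG1* (21.6 in *agl62* seeds, 37.2 in WT seeds). *MYB60* (1750 in *agl62* seeds, 1610 in WT seeds), *OST1* (352 in *agl62* seeds, 331 in WT seeds) and *KAT1* (208 in *agl62* seeds, 230 in WT seeds) had the highest levels. Other genes of that list were at or near 0: AT1G22690 had no reads, and *ALMT12* had 1.49 in *agl62* seeds and 0 in WT seeds. The summed means of the list were 2454 in *agl62* and 2335 in WT. All 20 photosynthesis genes were above a log2 ratio of 0, with a median of 0.43, beside 0.01 over all genes averaging at least 10. Of the 20, 2 were at least 2-fold higher, and the summed means were 151240 in *agl62* and 109097 in WT. The means of all 20 were above the floor. The 10 silique wall markers summed to 15357 in *agl62* and 12929 in WT, and most of that came from *ALC* (10100 in *agl62* seeds, 8640 in WT seeds) and *RPL* (4460 in *agl62* seeds, 3510 in WT seeds). *KAN1* (588 in *agl62* seeds, 629 in WT seeds) and *FUL* (17.3 in *agl62* seeds, 21.4 in WT seeds) had the lower mean in *agl62*. Of the 10, 5 averaged at least 10, with a median log2 ratio of 0.23, a range of -0.31 to 0.60 and none at least 2-fold different. The highest ratio was that of *NTT* (185 in *agl62* seeds, 122 in WT seeds). By contrast, *CRC* had 0.291 in *agl62* seeds and 0 in WT seeds, and *FIL* 0 in *agl62* seeds and 1.21 in WT seeds. The part of green or silique tissue in the higher means of *EPF2*, *TMM* and *BASL* was not tested.

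**Figure D4:**
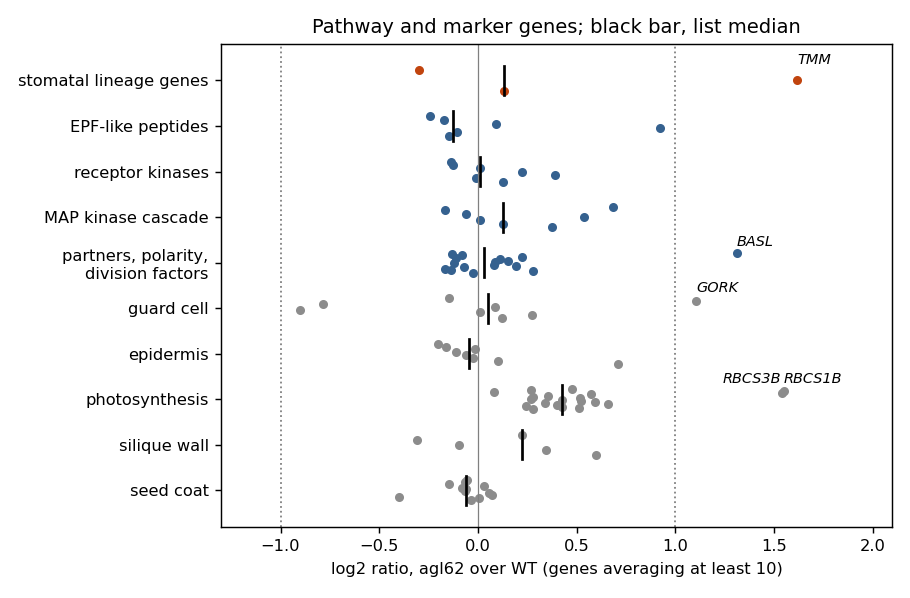
Log2 ratio of the authors' means, *agl62* over WT (x axis), of genes averaging at least 10, by list (rows). Each point is a gene, black bars are list medians, dotted lines mark 2-fold, and genes past them are named. The endosperm and embryo markers, some of them also past 2-fold, are not drawn. *TMM*, *BASL*, *GORK*, *RBCS1B* and *RBCS3B* were past 2-fold, and the photosynthesis genes were shifted to the right with a median of 0.43.

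Markers of the seed itself were read as well, beside the same 2.64% higher and 3.06% lower of all genes averaging at least 10. The 12 seed coat markers, led by *BAN* with 97300 in *agl62* seeds and 96900 in WT seeds, had a median log2 ratio of -0.06 with none at least 2-fold different. The 8 epidermis markers had a median of -0.04, also with none at least 2-fold different, and *PDF1* reached 69000 in *agl62* seeds and 74600 in WT seeds. Of 13 endosperm markers, 11 averaged at least 10, of which 7 were at least 2-fold lower and 1 was at least 2-fold higher in *agl62*, with a median of -1.59. The 7 were *PHE1*, *FWA*, *MEA*, *YUC10*, *TAR1*, *MINI3* and *AGL36*, and the 1 was *ZOU*. With means scaled to equal totals, 6 were at least 2-fold lower, without *FWA* (358 in *agl62* seeds, 720 in WT seeds). *YUC10*, *TAR1* and *AGL36* averaged 10 to 50, where 12.7% of genes were at least 2-fold lower. Of the 11, 3 were neither, namely *SUC5*, *FIS2* and *AGL80*. *SUC5* had 14800 in *agl62* seeds and 13500 in WT seeds. *FIS2* had 143 in *agl62* seeds and 83.9 in WT seeds, and *AGL80* 112 and 134. The summed means of the 13 were 15671 in *agl62* and 15344 in WT, mostly from *SUC5*. The part of these endosperm marker differences in the means of the stomatal lineage genes was not tested. Of 5 embryo markers, 4 averaged at least 10, and 1, *LEC1*, was at least 2-fold higher, with 325 in *agl62* seeds and 38.0 in WT seeds.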

How the data were processed

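RNA was sequenced as paired end reads (Illumina HiSeq2000). TopHat was used by the authors for alignment to TAIR10, only reads with a unique position were retained, and DESeq served for the comparison. The counting tool, the annotation, strand use and the versions were not given in the sources used here. The deposited table holds 1 signal per gene and genotype, namely the authors' mean over 3 libraries of the normalized counts (count over size factor). The authors' own comparison, deposited as a fold change, a log2 fold change, a p-value and a p-value adjusted for multiple tests, was not used.

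Computed here were the log2 ratio of the 2 means, each raised to a floor of 3, calls at 2-fold among genes averaging at least 10, levels per kb of merged exons, and 95% counting intervals from the relative depths, by matching the Poisson variance of a mean. The depth reading and the intervals were tested on simulated Poisson counts without spread between replicates. That is the model the intervals assume, so the test does not show how they cover real libraries. Identifiers were joined to RefSeq TAIR10.1, which matched 31912 of 32678. *EPFL* symbols that RefSeq lacks are given by identifier. The members and lists were chosen with earlier results of these data known. Named are the members, *AGL62*, pathway genes at least 2-fold different, up to 3 of each marker list with the highest WT mean and those at least 2-fold different, and the 3 genes closest in ratio to *TMM*. Other genes, such as receptors and markers near 0, were named after their values were seen. Matches elsewhere were searched with blastn. Python 3.11.15, numpy 2.4.6, pandas 2.3.3, scipy 1.17.1, biopython 1.88 and matplotlib 3.10.9 were used.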

Additional observations from a re-analysis of the deposited data

How the results depend on the processing

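No paired analysis was possible because each genotype has only its mean in the data used here, and leaving out single replicates or fitting a count model could not be done either. The log2 ratios of *TMM*, *SDD1*, *STOMAGEN* and *SPCH* stayed within their counting intervals under pseudocounts of 1 and 10, equal totals and a median log2 ratio of 0, the lowest for *TMM* being 1.04 with a pseudocount of 10. Equal totals shift by 0.05 the log2 ratio of each gene whose *agl62* mean is at or above the floor. The log2 ratio of *EPF2*, whose WT mean was 0, was 2.22 against the floor, 3.91 with a pseudocount of 1 and 1.26 with a pseudocount of 10, since the added count sets it. The number of members at least 2-fold higher was 1, and it was 2 with no filter, which adds *EPF2*, 0 with a filter of 50 and 0 at 4-fold. The number of pathway genes at least 2-fold higher was 1, and it was 2 with no filter, which adds AT4G37810, and 3 at 1.5-fold, which adds AT3G13898 and *MPK3*. Levels per kb of the longest transcript lay within the counting intervals. Depth limits *SPCH*, *EPF1*, *MUTE* and *FAMA* most.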
